A study of Homo sapiens with 6 samples.

Results

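S100A13 and 9 other genes of the S100 family of calcium-binding proteins were followed in Caco-2, a line of human colon carcinoma that in culture takes on features of enterocytes. The 10 genes are S100A2, S100A3, S100A4, S100A6, S100A10, S100A11, S100A13, S100A14, S100A16 and S100P, out of 33616 named genes measured. They were taken by gene symbol, and each was read by 1 feature of the array, so no choice between features had to be made. The set was selected on the measured difference of S100A13 between the groups, with the differences of the other 9 also known. The values of all 10 genes in this comparison are therefore given as a description, and nothing is read from where a member lies relative to a threshold.

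The arrays, of the Affymetrix type, held 3 samples of Caco-2 cells with overexpression of apoM and 3 samples of a group that the labels call NC. Both groups are of the same cell line and carry no other stated treatment. The labels do not say how apoM was overexpressed, in which clone or pool of cells, or what NC stands for. They do not say either that replicates are separate cultures, so the replicate error behind every p-value may be technical only. The study asked how expression differs with the level of apoM, a lipoprotein component that carries sphingosine-1-phosphate. APOM itself had log2 values of 15.49, 15.56 and 15.85 on the apoM overexpression arrays, against 5.38, 5.84 and 6.41 on the NC arrays, in the direction of the labels.

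S100 proteins are small, act mostly as dimers and carry a pair of EF-hand motifs, the helix-loop-helix folds that hold calcium. Calcium opens a hydrophobic face with which they grip other proteins, among them annexins, cytoskeletal proteins and the receptor RAGE. Most of the human genes lie side by side on chromosome 1, and several are strongly expressed in epithelia. S100P lies on chromosome 4.

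The bases before the RefSeq transcription starts of S100A13, S100A16 and S100A6 are shown first, because these members had the largest differences between the groups. Each line holds the 250 bases before a start in GRCh38.p14, read 5′ to 3′ on the strand of the gene. Capitals mark matches, on either strand, to the GC box GGGCGG, the TATA motif TATAAA, the CCAAT box CCAAT, the AP-1 motif TGANTCA or the E-box CACGTG. None of these 5 motifs contains another, and the third window of S100A13 (of 3) held no match and is not shown.
S100A13, first start (chr1:153634362-153634611, minus strand): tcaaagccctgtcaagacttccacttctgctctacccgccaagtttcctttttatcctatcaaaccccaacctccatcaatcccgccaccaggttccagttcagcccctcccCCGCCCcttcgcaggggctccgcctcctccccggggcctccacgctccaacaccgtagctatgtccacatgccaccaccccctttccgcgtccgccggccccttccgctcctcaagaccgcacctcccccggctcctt
S100A13, second start (chr1:153627506-153627755, minus strand): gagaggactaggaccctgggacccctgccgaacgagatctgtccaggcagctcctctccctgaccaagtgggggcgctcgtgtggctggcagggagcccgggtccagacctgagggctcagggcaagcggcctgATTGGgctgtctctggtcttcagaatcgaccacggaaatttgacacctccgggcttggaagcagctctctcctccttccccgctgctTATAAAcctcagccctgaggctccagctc
S100A16, first start (chr1:153613138-153613387, minus strand): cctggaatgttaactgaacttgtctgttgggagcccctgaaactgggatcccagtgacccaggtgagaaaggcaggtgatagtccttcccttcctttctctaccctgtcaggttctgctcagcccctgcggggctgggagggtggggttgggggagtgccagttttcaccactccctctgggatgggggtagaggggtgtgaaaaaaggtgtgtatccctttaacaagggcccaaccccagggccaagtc
S100A16, second start (chr1:153609356-153609605, minus strand): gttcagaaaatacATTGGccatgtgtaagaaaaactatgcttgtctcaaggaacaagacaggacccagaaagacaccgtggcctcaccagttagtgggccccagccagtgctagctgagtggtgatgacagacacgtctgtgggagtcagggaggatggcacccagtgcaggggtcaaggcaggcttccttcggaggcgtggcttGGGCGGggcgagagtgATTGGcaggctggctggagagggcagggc
S100A6 (chr1:153535992-153536241, minus strand): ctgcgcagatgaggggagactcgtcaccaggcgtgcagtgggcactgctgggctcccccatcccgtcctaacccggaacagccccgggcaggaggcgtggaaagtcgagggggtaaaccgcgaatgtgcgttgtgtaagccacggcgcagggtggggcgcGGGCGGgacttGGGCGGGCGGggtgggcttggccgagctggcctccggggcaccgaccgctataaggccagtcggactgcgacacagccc

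Upstream windows of the 10 genes, 14 in all, matched these motifs unevenly. A GC box was found in 6 windows of 6 genes, while 42.6% of the 35116 windows of all genes hold one. The TATA motif was found in 3 windows, 1 each of S100A4, S100A13 and S100P, against 10.7% of all windows. The CCAAT box was in 3 windows (32% of all), the AP-1 motif in those of S100A2 and S100A3 (6.57% of all) and the E-box in 0 (6.34% of all). S100A6 and S100A10 had the windows richest in CpG, with 24 CpG each, and the first window of S100A16 had 1. S100A13, S100A16 and S100A6 thus had no searched motif common to all their windows. A match is a run of letters only and is not evidence that a factor binds.

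S100A13, which in cell culture takes part in the release of FGF1 and interleukin-1 alpha, proteins that lack a signal peptide, had the largest difference of the 10. Its log2 values were 9.11, 9.32 and 8.91 on the apoM overexpression arrays, against 6.73, 7.49 and 7.97 on the NC arrays. Every apoM overexpression array lay above every NC array, and the NC arrays were spread over a wider range than the apoM overexpression arrays. The means were 9.12 ± 0.20 with apoM overexpression and 7.40 ± 0.63 in NC (SD, n = 3 each), a difference of 1.72 on the log2 scale (SE 0.28), or 3.29-fold. In bulk RNA fewer expressing cells and less RNA per cell cannot be told apart. The difference of S100A13 was the 10th largest positive one among the 17575 protein-coding genes and the 124th over all genes tested. Since S100A13 was selected on this difference, both ranks are a description and nothing is read from them. For reference to the limma fit across all named genes, 1 of the 10 members, S100A13, lay past an adjusted p of 0.05, which follows from how the set was selected and is no result. Over all genes 1.70% passed that threshold with a higher value, 0.357% with a lower one and 2.06% in either direction. With 1 array left out the difference of S100A13 ran from 1.38 to 2.01, and it lay past the threshold in 1 of those 6 fits, the one without NC replicate 3.

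**Figure D1:**
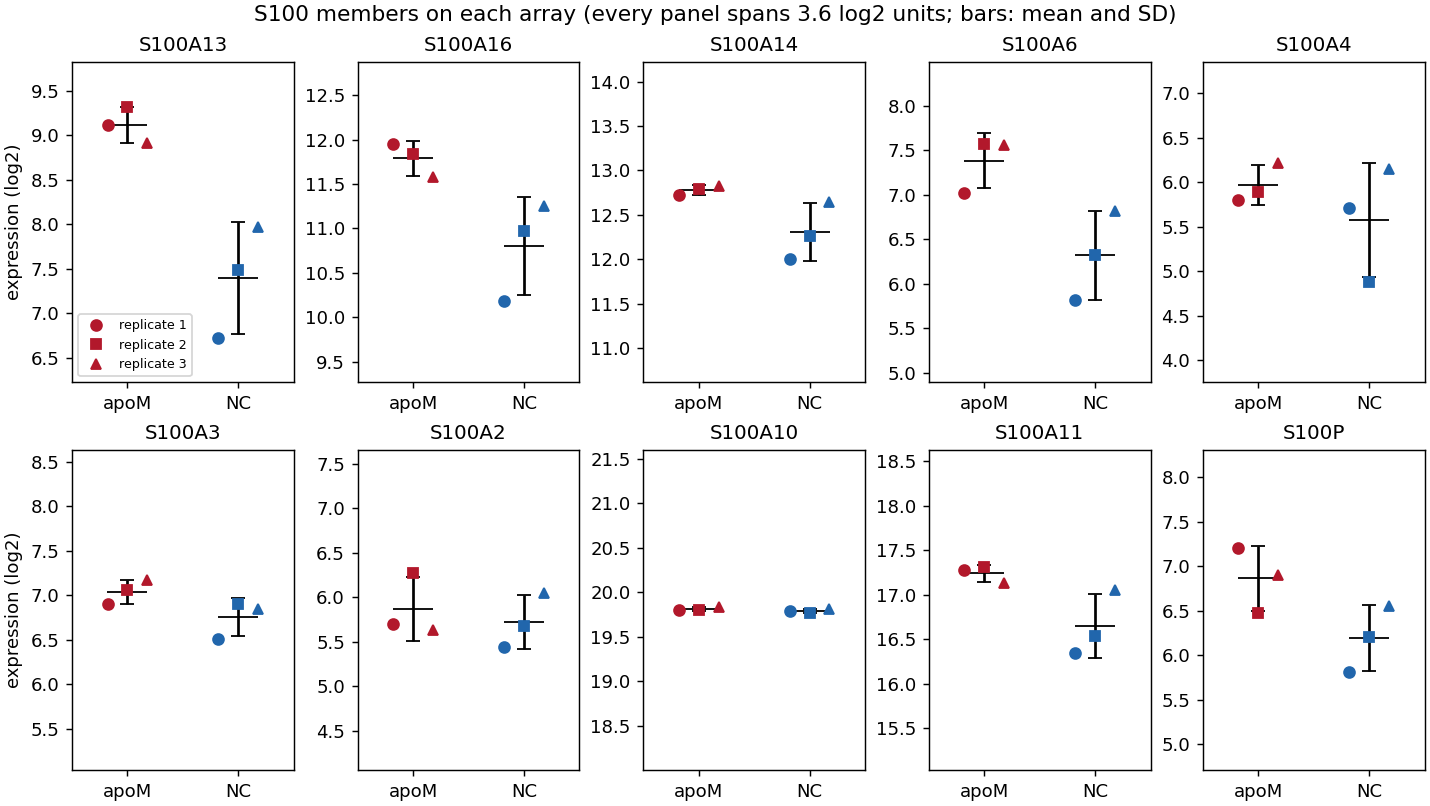
Log2 expression of each S100 gene (vertical axis, every panel spanning the same 3.6 log2 units) on the 3 apoM overexpression arrays (red, left) and the 3 NC arrays (blue, right); symbols give the replicate number, and bars the mean and SD. The groups stand apart for S100A13, S100A16, S100A14, S100A6 and S100A11, and the S100A10 points are nearly level.

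S100A16 and S100A14 are the next genes beside S100A13 on the chromosome, and both are expressed widely in epithelial cells. S100A16 had log2 values of 11.95, 11.84 and 11.58 with apoM overexpression, against 10.19, 10.97 and 11.25 in NC. The groups did not overlap, and NC replicate 1 was the lowest array. The difference was 0.99 on the log2 scale (SE 0.26), or 1.98-fold. S100A14 had 12.72, 12.79 and 12.83 with apoM overexpression, against 12.01, 12.27 and 12.65 in NC. Here too the groups did not overlap, but NC replicate 3 came close to the lowest apoM overexpression array. Its difference was 0.47 (SE 0.19).

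S100A6, or calcyclin, binds the ubiquitin ligase adaptor CACYBP and annexins. Its log2 values were 7.02, 7.56 and 7.55 with apoM overexpression, against 5.82, 6.32 and 6.82 in NC. The groups did not overlap, and NC replicate 3 came nearest to the apoM overexpression arrays. The difference was 1.06 (SE 0.26), or 2.09-fold. The differences of S100A6 and S100A16 were 0.81 and 0.68 without NC replicate 1, and 1.31 and 1.21 without NC replicate 3.

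S100A4, known for binding non-muscle myosin and for its link to cell motility, had 5.80, 5.89 and 6.22 with apoM overexpression, against 5.71, 4.88 and 6.15 in NC. The groups overlapped, and NC replicate 2 stood apart below the other arrays. The difference was 0.39 with all arrays and 0.04 without NC replicate 2. S100A3, best known as a zinc-binding protein of the hair cuticle, had 6.90, 7.06 and 7.17, against 6.51, 6.90 and 6.85 in NC, so that the lowest apoM overexpression array met the highest NC array. S100A2, best known from squamous epithelia, had 5.70, 6.28 and 5.63, against 5.44, 5.68 and 6.05 in NC, with the groups mixed. The differences of S100A3 and S100A2 were 0.29 and 0.15 on the log2 scale.

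S100A10 and S100A11 lie next to each other on chromosome 1, apart from the other members there, with 47 protein-coding genes between S100A11 and S100A9. S100A10 forms a tetramer with annexin A2 and has lost the ability to bind calcium. It read 19.80, 19.80 and 19.84 with apoM overexpression, against 19.79, 19.77 and 19.82 in NC. These values lay 0.09 to 0.16 below the highest value of their own array, near the top of the scale, where a difference between the groups cannot be read. S100A11, a partner of annexin A1, had 17.28, 17.31 and 17.13 with apoM overexpression, against 16.35, 16.54 and 17.05 in NC. Its groups did not overlap, NC replicate 3 stood nearest to the apoM overexpression arrays, and the difference was 0.59 (SE 0.20), or 0.33 with quantile normalization. The pseudogenes S100A11P1 and S100A11P2, near-identical copies, had differences of 0.58 and 0.38, neither past the threshold (limma adjusted p = 0.223 and 0.414). Their features and that of S100A11 may read one another.

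S100P, a ligand of RAGE that also binds ezrin, had 7.21, 6.48 and 6.91 with apoM overexpression, against 5.82, 6.21 and 6.56 in NC. The groups overlapped, since apoM overexpression replicate 2 read below NC replicate 3. The difference was 0.67 (SE 0.24), or 1.59-fold, the largest among the members whose groups overlapped.

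All 10 members had a difference above 0 in the deposited values, from 0.02 for S100A10 to 1.72 for S100A13, with a median of 0.53, but S100A10 turned to -0.06 with quantile normalization and S100A2 to -0.06 without apoM overexpression replicate 2. Over all genes tested the median was 0.09 and 62.9% had a difference above 0. The groups did not overlap, with apoM overexpression higher, for 5 of the 10 members, against 17.3% of all genes. Because the members were drawn up with these values known, nothing is read from these shares. NC replicate 1 was the lowest NC array for 8 of the 10 members and NC replicate 3 the highest for 9. Over all genes these shares were 40.2% and 44.1%. As deviations from the mean of each gene, the median over the members was 0.18, 0.31 and 0.28 on apoM overexpression replicates 1, 2 and 3, and -0.57, -0.32 and 0.02 on NC replicates 1, 2 and 3. The difference of S100A13 was 1.38 without NC replicate 1 and 2.01 without NC replicate 3, so both arrays moved its size.

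**Figure D2:**
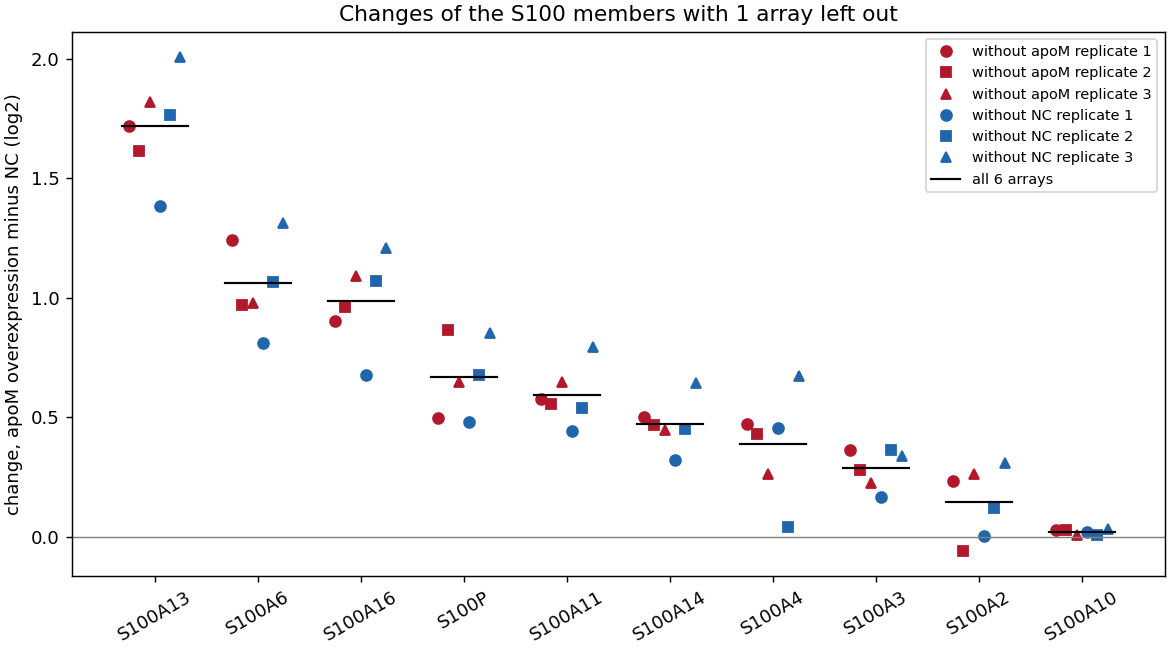
Difference in log2 expression, apoM overexpression minus NC (vertical axis), for each member with all 6 arrays (black line) and with 1 array left out (red, an apoM overexpression array; blue, an NC array). For S100A13 the values run from 1.38 without NC replicate 1 to 2.01 without NC replicate 3.

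The 10 members are short genes. The spans of the 10 members, introns included, ran from 1.39 kb for S100A6 to 15.6 kb for S100A13, with a median of 3.90 kb. The median of the protein-coding genes tested was 26.1 kb. For protein-coding genes, the trend of each array's deviation from the gene mean on log2 gene span was removed. The difference was then 1.60 for S100A13, 0.90 for S100A6 and 0.82 for S100A16. The median of the members was then 0.37, against -0.0049 over all protein-coding genes, and S100A2 and S100A10 turned to -0.03 and -0.12.

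**Figure D3:**
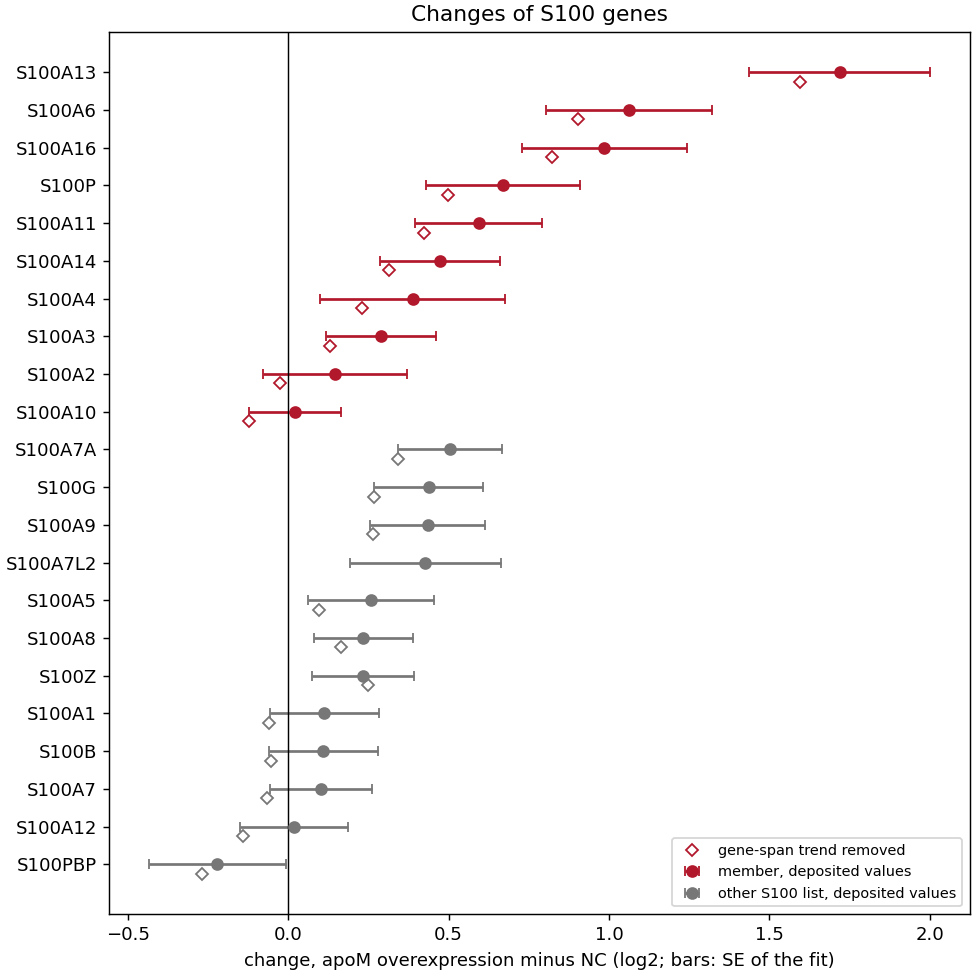
Difference in log2 expression, apoM overexpression minus NC (horizontal axis, bars give the SE), for the 10 members (red) and the 12 genes of the list of other S100 genes (grey); open diamonds show the difference with the gene-span trend removed, which has no value for S100A7L2. S100A13 lies at 1.72 and at 1.60 with the trend removed.

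The list of other S100 genes held 10 protein-coding S100 genes, the pseudogene S100A7L2 and S100PBP, whose product binds S100P. In limma 0 of the 12 passed over all genes, and 3 had an unadjusted p under 0.05, all higher. Over all genes tested 19.1% had such a p, and 14.3% had it with a higher value. The 3 were S100A7A with a difference of 0.50 (adjusted p = 0.124), S100G with 0.44 (adjusted p = 0.196) and S100A9 with 0.43 (adjusted p = 0.225). S100G, the vitamin D-dependent calbindin of enterocytes, had 4.81, 4.41 and 4.58 with apoM overexpression, against 4.04, 4.11 and 4.34 in NC. Its groups did not overlap, but the values were dim. S100A8 and S100A9 together form calprotectin of neutrophils, and S100A8 had a difference of 0.23 (limma adjusted p = 0.455). Dim features can understate a difference, and signal over background was not analysed here.

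S100A1 shares a stretch of chromosome with S100A13 on the opposite strand. It had 6.11, 5.87 and 5.85 with apoM overexpression, against 5.70, 6.06 and 5.73 in NC. The groups overlapped, and the difference was 0.11 with a 95% interval from -0.27 to 0.49 (limma adjusted p = 0.779). The remaining genes of the list were S100A7L2 at 0.43, S100A5 at 0.26, S100Z at 0.23, S100B at 0.11, S100A7 at 0.10, S100A12 at 0.02 and S100PBP at -0.22 (limma adjusted p from 0.364 to 0.972). With the gene-span trend removed, the values of S100A1, S100A7, S100A12 and S100B lay below 0.

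Along chromosome 1, 17 protein-coding genes run from S100A9 to ILF2, 14 of them S100 genes and 7 of those members. Of the 10 genes of the stretch that are not members, 0 passed in limma and 4 had an unadjusted p under 0.05, all higher (14.3% of all genes). On the side of S100A13 away from S100A14 and past S100A1, CHTOP, an mRNA export factor, had 9.94 ± 0.20 with apoM overexpression, against 9.85 ± 0.24 in NC (SD, n = 3 each), with overlapping groups (difference 0.10, limma adjusted p = 0.825). SNAPIN, a protein of vesicle and lysosome transport, had a difference of 0.74 (limma adjusted p = 0.181), and ILF2, which binds double-stranded RNA as part of a dimer, of 0.49 (limma adjusted p = 0.144). S100A6 at 1.06 stood beside S100A5 at 0.26, and S100A13 at 1.72 beside S100A1 at 0.11.

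**Figure D4:**
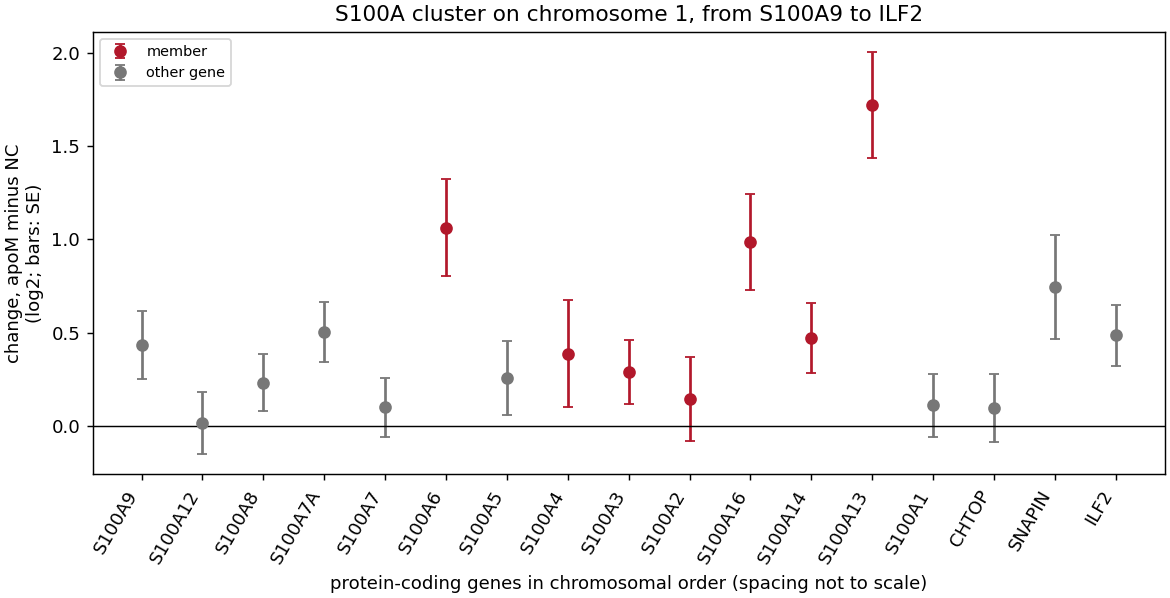
Difference in log2 expression, apoM overexpression minus NC (vertical axis, bars give the SE), for the 17 protein-coding genes from S100A9 to ILF2 in chromosomal order (horizontal axis, not to scale); members in red, others in grey. The 3 highest values are 1.72 for S100A13, 1.06 for S100A6 and 0.99 for S100A16.

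Annexins bind membranes in the presence of calcium and are the classic partners of S100A10, S100A11 and S100A6. Of 12 annexins measured, 0 passed in limma, 6 had an unadjusted p under 0.05, all higher (14.3% of all genes), and the median difference was 0.40. The annexins were bright, with a median level of 12.6. In a separate limma fit of only the 16808 genes above the median level, 4910 had such a p in either direction. The smallest p-values belonged to ANXA6 with 0.57 (adjusted p = 0.110), ANXA5 with 0.54 (adjusted p = 0.142) and ANXA3 with 0.45 (adjusted p = 0.203). ANXA2, the partner of S100A10, had 19.07, 19.05 and 18.96 with apoM overexpression, against 18.54, 18.61 and 18.88 in NC. The groups did not overlap, and the difference was 0.35 (limma adjusted p = 0.262), or 0.16 with quantile normalization. ANXA1, the partner of S100A11, had a difference of 0.44 (limma adjusted p = 0.246). Both were named for their role after their values were seen, outside the rule for naming genes, as were S100A11P1, S100A11P2, AGER, CACYBP, EZR and MYH9.

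Partners of S100A13 in the release of FGF1 and interleukin-1 alpha gave no gene past the threshold among 5 measured (limma, 1 with an unadjusted p under 0.05, higher, as 14.3% of all genes). SPHK1, a sphingosine kinase found in the FGF1 release complex, had 6.79, 6.89 and 6.43 with apoM overexpression, against 5.94, 6.12 and 6.36 in NC. Its groups did not overlap, with a difference of 0.56 (limma adjusted p = 0.134). SYT1, a synaptotagmin of the same complex, had 0.38 (limma adjusted p = 0.309) and IL1A itself -0.24 (limma adjusted p = 0.470). FGF1 and CAPN1 were the other genes of this list, and the median over the 5 was 0.28.

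Receptors of secreted S100 proteins gave 0 of 8 past the threshold in limma, with 3 at an unadjusted p under 0.05, all higher (14.3% of all genes). BSG, or basigin, a receptor of S100A9, had 15.86, 15.83 and 15.58 with apoM overexpression, against 14.92, 15.14 and 15.23 in NC. Its groups did not overlap, and the difference was 0.66 (limma adjusted p = 0.0651), or 0.42 with quantile normalization. CD69, with a difference of 0.54, and TLR4, with 0.42, followed (limma adjusted p = 0.132 and 0.222), both on dim features. AGER, which encodes RAGE, had -0.16 (limma adjusted p = 0.651).

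Intracellular targets gave 0 of 21 past the threshold in limma, with 4 higher and 1 lower at an unadjusted p under 0.05, as 19.1% of all genes had in either direction. SUGT1, a co-chaperone bound by S100A6, had 11.75, 11.76 and 11.74 with apoM overexpression, against 10.99, 11.15 and 11.30 in NC. Its apoM overexpression arrays were nearly identical and lay above all NC arrays, with a difference of 0.60 (limma adjusted p = 0.0679). CAPZA1, a subunit of the actin capping protein, had 0.50 and ACTB, cytoplasmic actin, 0.38 (limma adjusted p = 0.122 and 0.210). CACYBP had 0.29, MYH9, the non-muscle myosin heavy chain bound by S100A4, 0.29, and EZR, the ezrin bound by S100P, -0.08 (limma adjusted p = 0.411, 0.321 and 0.824). MYH9 turned to -0.11 with the mean of its 5 features, and EZR was at -0.34 with quantile normalization. The median of the list was 0.05.

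Among 37 other EF-hand proteins measured, MYL6 rose and none fell in limma (1.70% of all genes rose). Of the 37, 13 had an unadjusted p under 0.05, all higher (14.3% of all genes). Of 17575 protein-coding genes, 153 rose and 2178 were higher at such a p. In a separate limma fit of only the 16808 genes above the median level, 4910 had such a p in either direction. MYL6, the essential light chain of non-muscle and smooth muscle myosin, had 13.66 ± 0.36 with apoM overexpression, against 12.48 ± 0.43 in NC (SD, n = 3 each). The groups did not overlap, and the difference was 1.18 (SE 0.25, limma adjusted p = 0.0463). It passed in 7 of 15 alternatives (limma adjusted p from 0.0194 to 0.162), and of the 6 fits with 1 array left out only in the one without NC replicate 3. MYL6 did not pass with quantile normalization. With the mean of its 2 features, 1 of which carries no gene ID, the difference was 0.64 and did not pass. The list had a median of 0.31. In the list of channels and plasminogen system genes tied to S100A10, 0 of 9 passed in limma and 0 had an unadjusted p under 0.05. KCNK3 had a difference of 0.25, TRPV5 of -0.22 and TRPV6, a calcium channel of the enterocyte brush border, of 0.19 (limma adjusted p from 0.509 to 0.671).

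**Figure D5:**
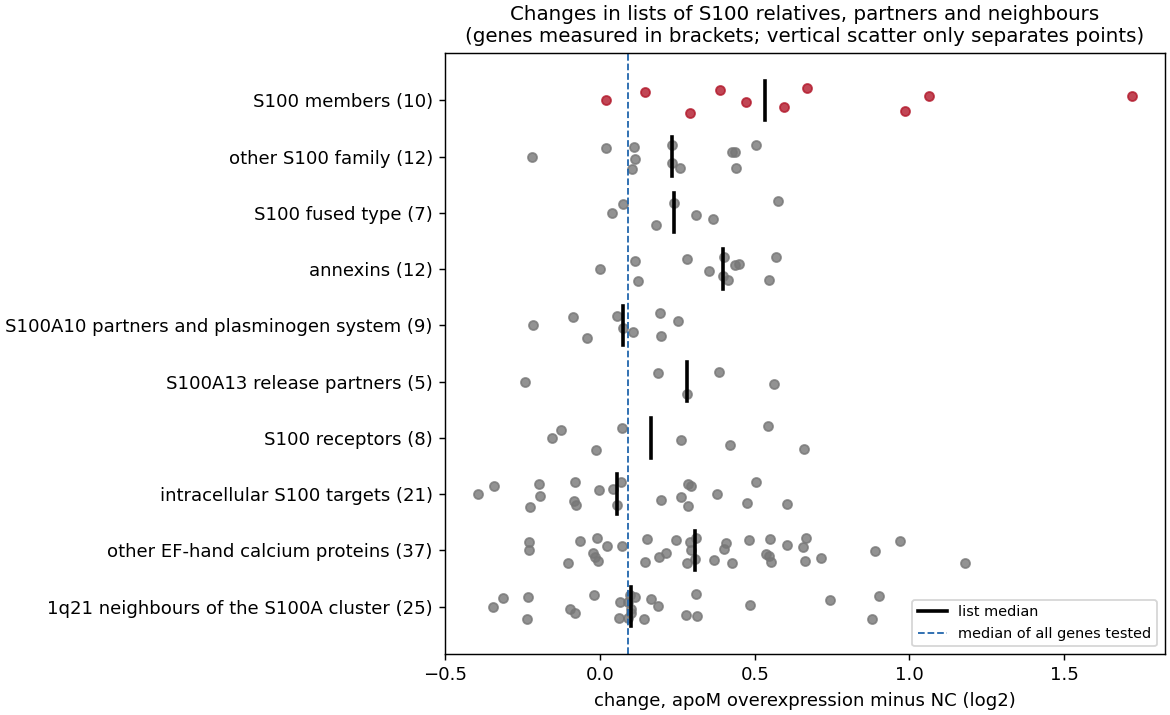
Difference in log2 expression, apoM overexpression minus NC (horizontal axis), for each measured gene of the S100 members (red) and of 9 lists of relatives, partners and neighbours (grey); black ticks are list medians and the dashed line is the median of all genes tested, 0.09. The members have the highest median, 0.53, and were chosen with their values known.

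The genes whose pattern over the 6 arrays was most like that of S100A13, among 10838 other protein-coding genes above the median level, were MRPS11, CTNNAL1, HMMR, CHPT1 and RNF181. Their Pearson correlations ran from 0.996 to 0.999 over the 6 arrays, which fall into the 2 groups and include NC replicate 3 between the other NC arrays and the apoM overexpression arrays. The likeness is one of shape and not of size. The pick used the same 6 arrays, and S100A13 was selected on its difference between the groups. Such a pick favours genes that differ between the groups, so their p-values are a description and no independent result. RNF181 had a difference of 1.56 and MRPS11 of 1.17, both past the threshold (limma adjusted p = 0.0324 and 0.0343), while CHPT1 had 0.29, or -0.019 with the mean of its 2 features. RNF181 and MRPS11 each passed in 1 of the 6 fits with an array left out. Among the members, the correlation with S100A13 was highest for S100A16 (0.97), S100A11 (0.96) and S100A6 (0.95) and lowest for S100A4 and S100A10 (0.45 each).

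The 10 markers of colon epithelium all read above the median gene. So did 4 of 7 leukocyte markers (highest 8.70), 3 of 6 fibroblast markers (9.17) and 2 of 4 endothelial markers (6.14). Of 5 keratinocyte markers 0 did. All 10 epithelial markers, among them EPCAM, CDH1, VIL1 and the keratins KRT8, KRT18 and KRT19, read from 7.23 to 18.34, against a median of 5.32 over all genes, and none passed the threshold between the groups. Their log2 values summed to 143.5 to 145.1 on apoM overexpression arrays and 141.2 to 143.4 on NC arrays, ranges that did not overlap. KRT18, KRT8 and KRT19 had the largest differences of this list, 0.61, 0.48 and 0.43 (limma adjusted p = 0.0850, 0.153 and 0.219). FABP1 was at 0.32, CDX2 at 0.18 and KRT20, also a keratin, at 0.07. CDH1 was at 0.04, CDH17 at 0.01, EPCAM at -0.02 and VIL1 at -0.02. The part of these markers in the results was not tested. The 5 keratinocyte markers measured read from 3.39 to 3.99, with sums of 18.28 to 18.75 on apoM overexpression arrays and 17.02 to 18.72 on NC arrays. The 7 leukocyte markers measured summed to 39.5 to 40.3 on apoM overexpression arrays and 38.5 to 41.0 on NC arrays. These ranges overlapped between the groups for the keratinocyte and leukocyte markers, and those of the 6 fibroblast and 4 endothelial markers measured overlapped too.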

How the data were processed

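The deposited table holds 1 value per feature and array, on a log2 scale judged from its range. Per the submitters' processing notes the authors used Affymetrix Expression Console, with version, normalization and build not given in the sources used here. The values were not normalized again. Of 135750 features, 36176 carry 1 gene symbol in the platform annotation, 1119 several and 98455 are unnamed here. Symbols were updated through gene IDs (25516) or symbols (9899) of the GRCh38.p14 RefSeq table, and 761 features were not matched. The feature with the highest mean stood for each of 33616 genes.

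Differences, apoM overexpression minus NC, were tested two-sided by lmFit and eBayes of limma 3.58.1 under R 4.3.3 (Benjamini-Hochberg over all genes, threshold 0.05). Precision is limited by 3 arrays a group. The fit was tested on simulated data of 33616 genes. It recovered 4% of planted log2 differences of 0.5, 76% of 1 and 100% of 2 and 4, with 10 false calls. The simulated noise was drawn independently for each gene and array. Shifts shared by many genes of an array were not simulated, so these figures may not hold for the real arrays. The members and lists were chosen with earlier results of these data known. Genes were named by rule: APOM, the members, the other S100 genes, the genes of each further list past the threshold or else its 3 smallest p-values, the stretch from S100A9 to ILF2, and the 5 genes most like S100A13. Of 146 listed genes outside the members, 136 were measured; the others were not analysed here. Promoter windows came from RefSeq (all 10 members matched), without the 50 bases after the start. Alternatives were quantile normalization, array medians subtracted, the mean of features, genes above the median level, trend and robust eBayes, array weights, a replicate block, each array left out, protein-coding genes only, the gene-span trend removed (lowess span 0.3) and other thresholds. Same-numbered arrays did not deviate together. Figures used matplotlib 3.10.9.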

Additional observations from a re-analysis of the deposited data

How the results depend on the processing

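The median difference of the 10 members ran from 0.37 with the gene-span trend removed to 0.73 without NC replicate 3 under the 15 alternatives that gave a value. The members were chosen with their differences known and all alternatives re-use these arrays, so a positive median is a description. The median over all genes was also positive in these settings, except for -0.0049 with the gene-span trend removed. The count of members past the threshold, 1 with all arrays, was 2 with quantile normalization. It was 3 with genes above the median level, with array weights and at an adjusted p of 0.1, and 0 at 0.01. Over all genes the counts were 879, 1730 (of 16808 tested), 1679, 2327 and 6 in the same order. The count of members ran from 0 to 4 with 1 array left out. Without NC replicate 3 it was 4, where 2358 of 33616 genes passed. The other 5 fits gave 0 in limma, with 3 to 5 members at an unadjusted p under 0.05. Over all 33616 genes, 4639 to 6058 had such a p in those 5 fits. With the replicate number as a block the count was 0 (limma, 6 members and 5954 of 33616 genes at an unadjusted p under 0.05). The members were selected on these arrays, so nothing is read from their counts.

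The count of listed genes outside the members, 2 with all arrays, was 1 with array medians subtracted and with protein-coding genes only, 0 with the mean of features (limma, 36 at an unadjusted p under 0.05), 7 with genes above the median level, 6 with trend and robust eBayes, 8 with array weights, 9 at an adjusted p of 0.1 and 0 at 0.01. It ran from 0 to 14 with 1 array left out, with 14 without NC replicate 3. With the replicate block it was 0 (limma, 29 at an unadjusted p under 0.05). Over all 33616 genes, 6395 had such a p with the mean of features and 5954 with the replicate block. SPRR2A and MYL6 each passed in 1 of the 6 fits with an array left out.

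The count over all genes, 691, was 1730 with genes above the median level, 1251 with trend and robust eBayes, 1679 with array weights, 195 with protein-coding genes only and 241 with the gene-span trend removed, of which 151 were higher and 90 lower against 571 and 120. It was 6 at an adjusted p of 0.01, 2327 at 0.1 and 50 with the replicate block, and ran from 2 to 2358 with 1 array left out. Fits with an array left out or with fewer genes tested differ by construction; the cause of the other shifts was not tested. Correlations of deviations between same-numbered arrays were -0.07, 0.03 and -0.07, so the numbers were not taken as pairs, and apoM overexpression replicates 1 and 3 correlated best with another number.

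Some differences changed sign. With the gene-span trend removed they were -0.059 for S100A1, -0.064 for S100A7, -0.053 for S100B, -0.14 for S100A12 and -0.039 for CHTOP. S100A12 was also at -0.017 with quantile normalization, -0.017 with array medians subtracted and -0.027 with array weights. With 1 array left out S100A12 ran from -0.087 to 0.10 and CHTOP from -0.039 to 0.18. With the mean of features CHPT1 was at -0.019 and MYH9 at -0.11. S100A10 was at -0.062 with quantile normalization, -0.014 with array medians subtracted and -0.12 with the gene-span trend removed.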

Other observations

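Proteins of the S100 fused type carry an S100-like calcium-binding domain at the start of a long structural protein of skin and hair. Of 7 measured, 0 passed in limma and 1, TCHHL1, had an unadjusted p under 0.05 (14.3% of all genes, higher), with a difference of 0.57 (adjusted p = 0.149). CRNN, cornulin of squamous epithelia, had 0.36 and RPTN, repetin, 0.31 (limma adjusted p = 0.344 and 0.545).

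Among 25 measured genes of the list of neighbours on chromosome 1, SPRR2A, a small proline-rich protein of the cornified envelope, rose in limma and none fell, while 4 genes had an unadjusted p under 0.05, all higher. Over all genes tested 1.70% rose and 14.3% were higher at such a p. SPRR2A had 5.60, 5.73 and 5.68 with apoM overexpression, against 4.64, 4.50 and 5.18 in NC. The groups did not overlap, and the difference was 0.90 (SE 0.20, limma adjusted p = 0.0496). The SPRR2 genes are so alike in sequence that cross-hybridization between them is possible, and the value of SPRR2A is uncertain. It passed in 4 of 14 alternatives (limma adjusted p from 0.00807 to 0.168). The median of this list was 0.10, close to the 0.09 of all genes tested.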
